A study of Mus musculus with 50 samples.

Results

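The mRNA of genes for subunits of the GABA-A receptor was followed in mouse frontal cortex across 5 ages and 2 genotypes. The 7 genes Gabra2, Gabra3, Gabra4, Gabra5, Gabrb1, Gabrb2 and Gabrd were taken as a list of names, matched to the count files through the GENCODE annotation. They are 7 of the 55487 genes in the files, and each of the 7 was among the 16330 protein-coding genes that passed the filter on low counts and were tested.

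The study asked how loss of function of 1 copy of Setd1a, a gene for a histone methyltransferase in which damaging variants raise the risk of schizophrenia, alters gene expression in the developing cortex. RNA captured by its poly-A tail was sequenced from frontal cortex, with 1 library from each mouse. Wild-type (WT) mice and heterozygous (Het) carriers of the Setd1a loss-of-function allele were sampled at E14, E18, P7, P35 and P70, where E is the embryonic and P the postnatal day. Each of the 10 groups held 5 libraries, and the total per library ran from 35507165 to 43907318 counts.

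All 50 libraries carry the strain label C57BL/6NTac, while the methods of the study describe a mixed background of C57BL/6NTac and C57BL/6J. The methods also describe the animals as male and place both embryonic ages a fraction of a day later than the labels. The allele is carried in the germline and in every cell, derives from a knockout-first design, and was compared with WT offspring of the same kind of cross. The C57BL/6J substrain is known to differ from other strains in the level of Gabra2, and the counts hold no genotype at that gene. Tissue was sequenced in bulk, so fewer cells of a type and less RNA per cell cannot be told apart in any level or difference.

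Some libraries stood apart from their groups before any test. Replicate 5 of E14 WT held 60159 counts of Xist and 0 counts of the Y-linked genes, and replicate 2 of E18 WT held 55644 counts of Xist and 11 of the Y-linked genes, against at most 27 counts of Xist in the other 48 libraries. Both go against the description of all animals as male, and some results that involve their groups are given with and without them. With both left out, 6 of the 7 members were called from E14 to E18 in WT cortex (63.7% of all genes) and 7 from E14 to P70 (84.9%). Replicate 2 of P7 WT differed in marker genes. Its 6 choroid plexus markers summed to 635 CPM (the counts of a gene relative to the total of its library, scaled between libraries by the trimmed mean of M values, TMM), with Ttr the most abundant, against 3.04 to 4.10 CPM in the other 4 libraries of its group. The 5 neuronal markers, led by Tubb3, summed to 4423, 3180.0, 4662, 4472 and 4626 CPM in P7 WT replicates 1 to 5, so that replicate 2 was the lowest. The 7 cortical markers summed to 1584, 885, 1674, 1579.6 and 1628 CPM in the same order, and all 7 were detected in every library of every group. The 6 Hox genes that mark hindbrain summed to at most 1.12 CPM in any library other than P7 WT replicate 2, which had 9.64 CPM with all 6 detected. Its 5 oligodendrocyte markers summed to 1278 CPM, against 122 to 174 CPM in the other 4 libraries of its group, and its 5 thalamus markers to 235 CPM, against 67.1 to 72.4 CPM. The part of these marker differences in the results was not tested.

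GABA-A receptors are chloride channels that open when they bind GABA, the main inhibitory transmitter of the cortex, and each is assembled from 5 subunits drawn from several gene families. The alpha subunits set the affinity for GABA, the sensitivity to benzodiazepines and the place of the receptor on the cell, the beta subunits form the GABA binding site together with alpha, and a gamma or delta subunit completes the channel. The subunit mix is known to change as the cortex matures, and receptors that hold the delta subunit lie outside synapses and carry a tonic current.

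Several of these genes lie in clusters on the GRCm38 genome. Gabra2 (chr5:70957597-71095849, minus strand) and Gabra4 (chr5:71569749-71658308, minus strand) are 474 kb apart, and Gabrg1, a gamma subunit gene, lies 115 kb from Gabra2. Gabrb1 (chr5:71658113-72149037, plus strand) overlaps the 5′ end of Gabra4 head to head, and the pair share 46 exon bases. Gabra3 (chrX:72432681-72656848, minus strand) is X-linked, with the subunit genes Gabre and Gabrq 157.9 kb and 168 kb away. Gabra5 (chr7:57407672-57510059, minus strand) lies 20.5 kb from Gabrg3, and 4.98% of its exon bases are shared with Gm9962 on the other strand. Gabrb2 (chr11:42419757-42629028, plus strand) lies 98.7 kb from Gabra6, and Gabrd (chr4:155384980-155398112, minus strand) has no other subunit gene nearby. Counting ignored the strand and let a fragment count for several genes, so a fragment over shared exon bases was counted for both.

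The RefSeq promoter table (GRCm38.p6) matched 6 of the 7 genes, Gabrd was not matched, and 9 entries of Gabra3, Gabra4, Gabra5, Gabrb1 and Gabrb2 were read. The sequence upstream of the start is printed for 3 genes, Gabra5 because it was the member that fell after P7, and Gabra4 and Gabrb1 as 2 of the genes that rose. Each runs 5′ to 3′ on the strand of its gene, and capitals mark CG pairs. The windows are chr7:57510060-57510309 (minus strand, 9 CG pairs in 250 bases) for Gabra5, chr5:71658364-71658558 (minus strand, 10 in the bases left after 55 exonic bases left out) for Gabra4, and chr5:71699682-71699931 (plus strand, 6 in 250), the second of the entries for Gabrb1, which lies inside that gene as annotated and not beside Gabra4.
Gabra5: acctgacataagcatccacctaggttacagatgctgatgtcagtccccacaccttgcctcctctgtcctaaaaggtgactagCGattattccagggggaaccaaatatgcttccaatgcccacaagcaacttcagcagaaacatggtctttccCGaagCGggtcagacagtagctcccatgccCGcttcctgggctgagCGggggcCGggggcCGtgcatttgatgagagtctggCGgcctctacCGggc
Gabra4: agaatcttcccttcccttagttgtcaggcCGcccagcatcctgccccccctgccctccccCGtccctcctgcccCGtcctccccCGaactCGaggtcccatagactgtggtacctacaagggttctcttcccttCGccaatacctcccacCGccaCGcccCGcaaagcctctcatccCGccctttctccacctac
Gabrb1: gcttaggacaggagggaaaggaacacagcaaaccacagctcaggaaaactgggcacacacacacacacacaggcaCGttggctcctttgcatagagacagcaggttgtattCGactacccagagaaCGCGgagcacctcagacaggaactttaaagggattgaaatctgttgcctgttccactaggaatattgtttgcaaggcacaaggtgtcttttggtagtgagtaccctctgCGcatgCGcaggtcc

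Over the full window of 300 bases that the table gives, 250 before and 50 after the start, the first entry of Gabrb1 had 25 CG pairs, a number reached by 18.4% of the 32851 promoters, whose median was 7. Its second entry had 9, Gabra5 had 13, Gabra4 had 12, and the 3 entries of Gabrb2 had 11, 9 and 9. Both entries of Gabra3 had 0 CG pairs. The letters TATAAA, searched on both strands, occurred in 13.6% of all promoters and among these genes in both entries of Gabra3 and the first entry of Gabrb2. CCAAT occurred in 37.4% of promoters and in at least 1 entry of Gabra3, Gabra4, Gabra5 and Gabrb2. GGGCGG occurred in 35.7% of promoters and in the window of Gabra4 and the first of Gabrb2, and TGACGTCA, in 1.79% of promoters, was in none of the 9 windows. A match describes letters in a window and is not a measured binding site.

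Setd1a, the targeted gene, did not show a lower level in Het cortex over all ages. Its log2 difference between Het and WT was 0.10 (SE 0.03, edgeR adjusted p 0.00679), with mean levels of 99.9 CPM in Het and 92.8 CPM in WT. The ranges of the genotypes overlapped at E14, E18, P35 and P70, and at P7 the Het libraries (76.4 to 83.7 CPM) lay above the WT libraries (70.2 to 76.2 CPM). At P70 the sign was the other way, with 84.8 CPM in Het and 86.3 CPM in WT (difference -0.03, p 0.631). Gm49388 shares 51.9% of the exon bases of Setd1a, and the other bases were not tested apart from these. The genotype labels were not checked by these counts. The study refers to an earlier report of less Setd1a protein in cortex of heterozygous mice.

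The first question was how the subunit mRNAs change as the cortex develops. A gene was called when its edgeR p, adjusted by Benjamini-Hochberg over all 16330 genes, was under 0.05. In WT cortex from E14 to E18, 7 of the 7 members were called higher and 0 lower, against 31.8% of all genes called higher and 34.1% lower. From E18 to P7, 6 members were called higher and 0 lower (all genes 33.9% and 33.4%). From P7 to P35, 6 were called higher and 1 lower (all genes 32.6% and 34.3%). Between P35 and P70, edgeR called 0 members higher and 0 lower (all genes 0.533% and 0.527%), DESeq2 and limma-voom also called 0, and 0 members had an unadjusted p under 0.05, as 1849 of all genes did. From E14 to P70, 7 were called higher and 0 lower (all genes 42.8% and 42.9%). The median log2 difference of the members was 1.42, 0.97, 0.73 and -0.05 over the 4 steps and 2.74 from E14 to P70, where the median of all genes lay within 0.02 of 0. Neighbouring steps share the libraries of 1 age, and their values are set side by side only.

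Het cortex was measured in other mice. From E14 to E18, 6 members were called higher and 0 lower (all genes 32% and 32.5%), and from E18 to P7 also 6 and 0 (all genes 32.7% and 35%). From P7 to P35, 5 were called higher and 1 lower (all genes 34.5% and 33.3%). Between P35 and P70, edgeR, DESeq2 and limma-voom each called 0 members, with 0 under an unadjusted p of 0.05, beside 2639 of all genes (called by edgeR: 1.51% higher and 1.47% lower). From E14 to P70, 7 were called higher and 0 lower (all genes 42.3% and 43%). The members' median log2 difference was 1.74, 1.03, 0.68 and -0.01 over the 4 steps and 2.96 from E14 to P70.

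**Figure D1:**
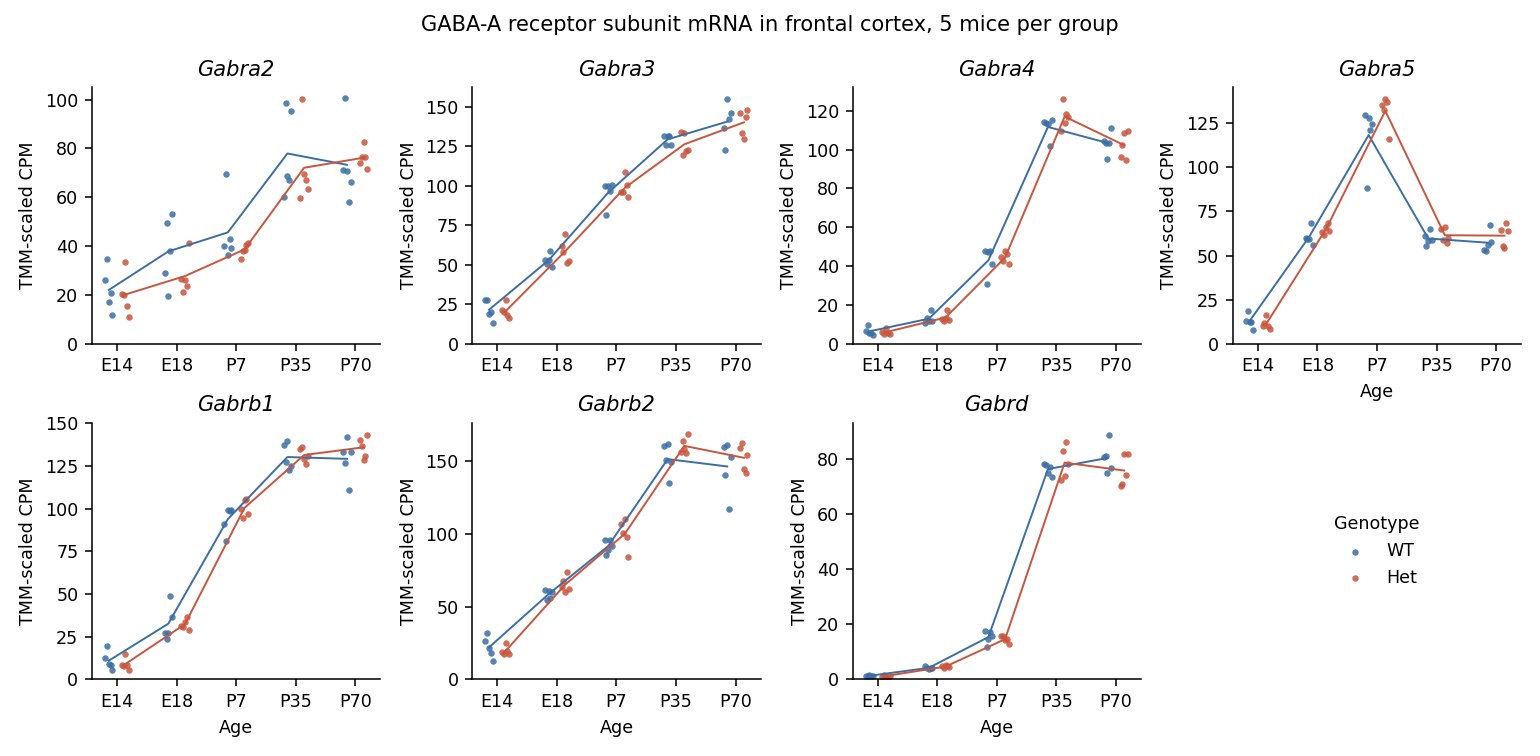
TMM-scaled CPM of the 7 subunit genes by age, 1 point per library, with WT in blue and Het in red and lines through the means of 5 libraries. Gabra5 peaks at P7, the other 6 genes are highest at P35 or P70, and the genotypes overlap at every age.

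Gabra2 encodes an alpha subunit that is enriched at synapses on the axon initial segment of pyramidal neurons. In E14 WT cortex its level was 26.0, 34.5, 17.3, 20.6 and 11.6 CPM in replicates 1 to 5, and at E18 it was 29.1, 49.4, 19.4, 38.2 and 53.0 CPM. The E18 values reached higher, but the ranges overlapped, and replicate 3 at E18 lay below 3 of the E14 libraries. P7 WT libraries gave 40.2, 69.7, 36.3, 42.8 and 39.1 CPM, P35 WT libraries 60.0, 98.7, 68.5, 67.1 and 95.4 CPM, and P70 WT libraries 71.1, 101, 70.6, 57.9 and 66.3 CPM. Within these groups single mice lay far above the rest, such as replicate 2 at P7, replicates 2 and 5 at P35 and replicate 2 at P70. The step from E14 to E18 was 0.78 on the log2 scale (SE 0.25, adjusted p 0.00497). Without the 2 libraries with Xist counts that step for Gabra2 was 0.51 and was not called (adjusted p 0.0829). From E18 to P7 the difference of 0.27 did not pass the threshold (adjusted p 0.325, 95% interval -0.20 to 0.74), and without P7 WT replicate 2 it was 0.07. The level rose by 0.77 from P7 to P35 (adjusted p 0.00452), with overlapping ranges, and by 0.98 without P7 WT replicate 2. Over the whole course the rise was 1.74 (SE 0.25, adjusted p 2.13e-08), and every P70 library lay above every E14 library.

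In Het cortex, Gabra2 measured 20.6, 19.97, 33.6, 15.6 and 11.1 CPM at E14, 26.6, 21.3, 26.1, 23.5 and 41.1 CPM at E18 and 34.7, 37.9, 38.5, 40.6 and 41.4 CPM at P7, in replicates 1 to 5. Replicate 3 at E14 and replicate 5 at E18 lay above the other mice of their groups, and the 5 values at P7 were close together. At P35 the Het libraries gave 59.9, 100.2, 69.7, 67.2 and 63.6 CPM and at P70 73.9, 76.5, 82.6, 76.5 and 71.6 CPM, where replicate 2 at P35 was again far above its group. The step from E14 to E18 (0.46, adjusted p 0.0996) was not called, but it was called without E14 Het replicate 3 (0.72, adjusted p 0.0109). It was 0.27 without E18 Het replicate 5 (adjusted p 0.355) and 0.17 with RNA integrity as a covariate (adjusted p 0.590). The step from E18 to P7 (0.48, adjusted p 0.0785) was likewise not called, but it was called without E18 Het replicate 5 (0.66, adjusted p 0.0220) alone among the libraries left out in turn. It was also called with RNA integrity as a covariate (0.75, adjusted p 0.0107) and with a minimum of 10 CPM (adjusted p 0.0486). From P7 to P35 Gabra2 rose by 0.90 in Het cortex (adjusted p 0.00111), with no overlap.

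**Figure D2:**
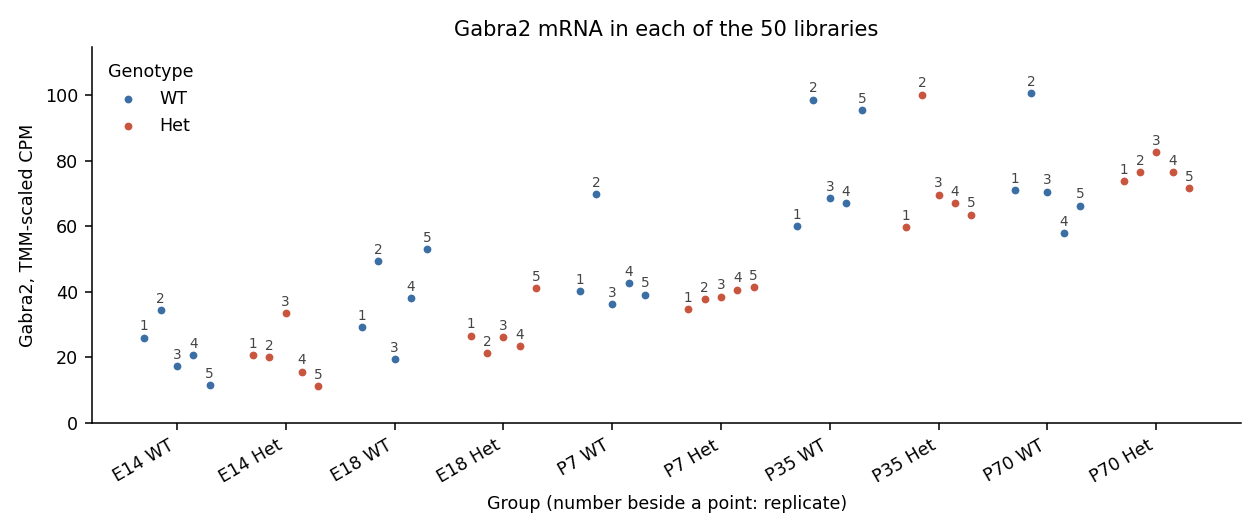
TMM-scaled CPM of Gabra2 in each of the 50 libraries, in groups by age and genotype, with the replicate number beside each point. Single libraries such as P7 WT replicate 2 (69.7 CPM) and P35 Het replicate 2 (100.2 CPM) lie apart from the other 4 of their groups.

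Gabra3 encodes the alpha subunit found widely in immature cortex. Its mean level in WT cortex was 21.5 (SD 6.29), 52.8 (SD 3.90), 95.6 (SD 8.06), 129 (SD 3.24) and 141 (SD 12.0) CPM at the 5 ages in order. At E14 WT the 5 libraries gave 27.5, 27.9, 18.7, 20.4 and 13 CPM, and the lowest was replicate 5, which carried Xist counts. The ranges did not overlap in any of the steps up to P35, the first of which was 1.30 (SE 0.12, adjusted p 1.79e-12). Without the 2 libraries with Xist counts this first step of Gabra3 was 1.18. The next steps were 0.86 and 0.44, and the rise from E14 to P70 was 2.71 (SE 0.13). In Het cortex Gabra3 rose by 2.77 from E14 to P70, from 16.1 to 27.96 to 129 to 148 CPM.

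Gabra4 encodes an alpha subunit that often joins delta in receptors outside synapses. In E14 WT cortex it measured 6.43, 9.89, 5.41, 5.49 and 4.59 CPM, at P7 47.7, 30.8, 47.4, 47.6 and 41.3 CPM, and at P35 114, 114, 113, 101.9 and 115 CPM. Replicate 2 was the lowest at P7, replicate 4 was the lowest at P35, and no P7 library reached the P35 range. The largest of its WT steps was 1.74 from E18 to P7 (SE 0.14, adjusted p 4.36e-15), which was 1.84 without P7 WT replicate 2. From E14 to P70 Gabra4 rose by 4.03 in WT (SE 0.15) and by 4.10 in Het cortex (SE 0.15). Het levels ran from 4.78 to 8.22 CPM at E14 to 94.6 to 109.5 CPM at P70.

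Gabra5 encodes an alpha subunit of receptors that lie largely outside synapses, and its course differed from those of the other members. WT libraries gave 13.1, 18.5, 12.6, 12.4 and 7.75 CPM at E14 and 60.0, 59.4, 59.2, 68.2 and 56.1 CPM at E18. No E14 value came near the E18 values. At P7 the WT libraries reached 129, 88.3, 128, 121 and 125 CPM, at P35 60.9, 55.4, 58.3, 65.1 and 58.6 CPM, and at P70 53.1, 52.6, 55.9, 67.1 and 57.6 CPM. All P7 libraries lay above all others, with replicate 2 the lowest of the 5, and the P35 and P70 ranges overlapped. The rise from E14 to E18 was 2.24 (SE 0.14, adjusted p 1.05e-17), the largest of the 7 members in that step. From P7 to P35 the level of Gabra5 fell by 0.99 (SE 0.13, adjusted p 4.12e-09), and without P7 WT replicate 2 it fell by 1.08. It was the only member called lower in any age step, in either genotype and under every alternative run. Of the 9 other GABA-A subunit genes tested, 3 were called higher and 1 lower from P7 to P35 in WT cortex (all genes 32.6% and 34.3%). In Het cortex 2 of the 9 were called higher and 2 lower (all genes 34.5% and 33.3%).

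Het mice gave the same order for Gabra5, with 9.88, 11.7, 16.4, 10.2 and 8.06 CPM at E14, 63.5, 61.7, 66.2, 68.4 and 64.0 CPM at E18 and 136, 132.6, 139, 137 and 116 CPM at P7. Replicate 5 was the lowest at P7 and still lay above every library of another age. At P35 the values were 65.1, 59.0, 66.4, 57.3 and 59.9 CPM and at P70 64.7, 55.2, 54.1, 68.4 and 63.9 CPM. The fall from P7 to P35 was by 1.10 on the log2 scale (a difference of -1.10, SE 0.13, adjusted p 2.62e-10).

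Gabrb1 and Gabrb2 encode beta subunits, which are needed for the receptor to reach the cell surface. Gabrb1 rose in WT cortex from 5.41 to 19.6 CPM at E14 to 23.5 to 48.8 at E18, 80.9 to 99.3 at P7 and 123 to 139 CPM at P35. None of these neighbouring ranges overlapped, and the P70 range of 111 to 142 CPM spanned that of P35. Its step from P7 to P35 was 0.47 in WT (adjusted p 0.0188) and 0.42 without P7 WT replicate 2 (adjusted p 0.0456). In Het cortex the same step of Gabrb1 was 0.39 with an adjusted p of 0.0530, just past the threshold, although the P7 (94.6 to 106) and P35 (126 to 136) ranges in CPM did not overlap. That call depended on single libraries of other groups, since it was made when any of 7 was left out (E14 WT replicate 2 or 5, E14 Het replicate 3 or 5, E18 WT replicate 2 or 4, or P7 WT replicate 2), with adjusted p from 0.0208 to 0.0496.

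Gabrb2 had WT ranges of 12.7 to 31.6 CPM at E14, 54.6 to 61.6 at E18, 85.3 to 96.2 at P7 and 135 to 162.1 CPM at P35, again without overlap between neighbours. Its whole rise was 2.74 in WT (SE 0.13) and 2.96 in Het cortex (SE 0.13), beside 3.57 and 3.92 for Gabrb1. From P35 to P70 neither was called in WT cortex, with 95% intervals of -0.36 to 0.34 for Gabrb1 and -0.28 to 0.18 for Gabrb2.

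Gabrd encodes the delta subunit and had the lowest level of the 7 at E14. WT libraries gave 1.17, 1.19, 1.41, 1.24 and 1.25 CPM at E14, from 40 to 56 counts, and 4.86, 4.10, 3.68, 4.07 and 4.09 CPM at E18. At P7 they gave 17.4, 11.6, 14.7, 17.1 and 15.9 CPM. These first 3 ages did not overlap, and replicate 2 was the lowest at P7. At P35 the WT values were 78.1, 77.7, 74.9, 77.1 and 73.3 CPM and at P70 80.4, 80.9, 74.9, 88.6 and 76.5 CPM. Every P35 library lay far above every P7 library, and P35 and P70 overlapped. The steps were 1.72, 1.88 and 2.32 on the log2 scale, the last with SE 0.09 and adjusted p 1.25e-25. From E14 to P70 Gabrd rose by 5.99 (SE 0.12, adjusted p 9.40e-38), the largest rise of the 7 members.

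In Het cortex Gabrd gave 0.776, 1.69, 1.27, 0.986 and 1.35 CPM at E14, 4.74, 4.16, 5.12, 4.78 and 4.31 CPM at E18 and 15.6, 15.8, 14.2, 14.5 and 12.6 CPM at P7. P35 Het libraries gave 72.1, 82.8, 73.9, 86.0 and 77.9 CPM and P70 Het libraries 70.01, 70.9, 81.5, 74.2 and 81.8 CPM. The ages separated as they did in WT, and the rise from E14 to P70 was 5.95 (SE 0.12).

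Marker genes moved over the same ages. The 5 neuronal markers summed to 2766 CPM in E14 WT and 5712 CPM in P70 WT cortex, and all 5 were detected in every library. The 6 interneuron markers summed to 315 CPM at E14, where Gad2 was the most abundant and Vip was at 0, and to 896 CPM at P70, where Gad1 was the most abundant. The 5 oligodendrocyte markers, led by Mbp, summed to 49.5 and 3739.6 CPM at the same 2 ages, the 5 astrocyte markers, led by Slc1a3, to 185 and 933 CPM, and the 5 microglia markers, led by Csf1r, to 37.6 and 188 CPM. The 8 striatum markers, led by Ppp1r1b, summed to 117 CPM in E14 WT and 1059 CPM in P70 WT cortex, where the libraries differed widely (1329.7, 1426, 387, 1173 and 978 CPM in replicates 1 to 5). The 6 choroid plexus markers differed within 3 of the 4 embryonic groups, with 12.6, 24.0, 399, 274 and 430.0 CPM in E14 WT, 80.3, 10.9, 191, 466 and 487 CPM in E14 Het and 7.58, 8.77, 235, 197 and 15.7 CPM in E18 WT replicates 1 to 5. In E18 Het they ran only from 5.16 to 9.53 CPM, below 3 of the 5 WT libraries. The part of these shifts in the levels and differences of the subunit genes was not tested.

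Levels of different genes were compared as RPKM, which divides CPM by the length of the exons in kilobases. In E14 WT cortex the order of mean RPKM was Gabra3 (5.48, SD 1.60), Gabra5 (4.32, SD 1.28), Gabrb2 (3.46, SD 1.15), Gabra2 (2.88, SD 1.14), Gabra4 (1.05, SD 0.342), Gabrb1 (0.788, SD 0.391) and Gabrd (0.437, SD 0.0323). Each neighbouring pair in that order overlapped in range. Within single libraries each pair kept that order in 5 of the 5, except Gabrb1 and Gabrd, which kept it in 4. At E18 and P7 Gabra5 was first in WT cortex, with a mean of 20.4 and then 39.8 RPKM, and did not overlap with Gabra3 (13.5 and 24.4 RPKM) or with Gabrb2 (9.21 and 14.4 RPKM). The remaining 4 genes at P7, Gabra4, Gabrb1, Gabra2 and Gabrd, lay between 5.33 and 7.07 mean RPKM and overlapped with their neighbours.

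At P70 WT the order was Gabra3 (35.8 RPKM), Gabrd (27.9), Gabrb2 (23.0), Gabra5 (19.3), Gabra4 (17.01), Gabra2 (9.60) and Gabrb1 (9.33). Gabra3 was above Gabrd and Gabrd above Gabrb2 without overlap, and Gabrb2, Gabra5 and Gabra4 overlapped in turn. Gabra2 overlapped with Gabrb1 and was above it in only 1 of the 5 libraries. P35 WT had the same order of means, with Gabra2 above Gabrb1 in 2 of the 5 libraries. The order depended on the length used, since with the longest transcript in place of all exons the P70 level of Gabrb2 was 36.7 RPKM, above Gabrd (29.6 RPKM), and Gabra4 (25.2 RPKM) was above Gabra5 (21.4 RPKM). With that length Gabrb2 (5.52 RPKM) was also above Gabra5 (4.81 RPKM) in E14 WT cortex. With the length of all exons, Gabra3 was first in Het cortex at E14, P35 and P70 and Gabra5 at E18 and P7, as in WT. In P70 Het cortex Gabrd and Gabrb2 overlapped, with Gabrd above in 3 of the 5 libraries. The longest transcript was applied to the E14 and P70 WT levels only, so first place at the other ages was not compared between lengths.

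The summed RPKM of the 7 genes was 18.4, 53.9, 104, 141 and 142 in WT cortex from E14 to P70. Of that sum, the mean share of Gabra5 went from 23.6% at E14 to 38.2% at P7 and 13.6% at P70. The share of Gabrd went from 2.59% to 5.12% and 19.7% at the same ages. Gabra2 fell in share while its own level rose, with 15.3% at E14 and 6.77% at P70. Gabra3 made up 29.9% at E14 and 25.2% at P70. Shares in Het cortex were 40.4% for Gabra5 at P7 and 18.4% for Gabrd at P70.

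**Figure D3:**
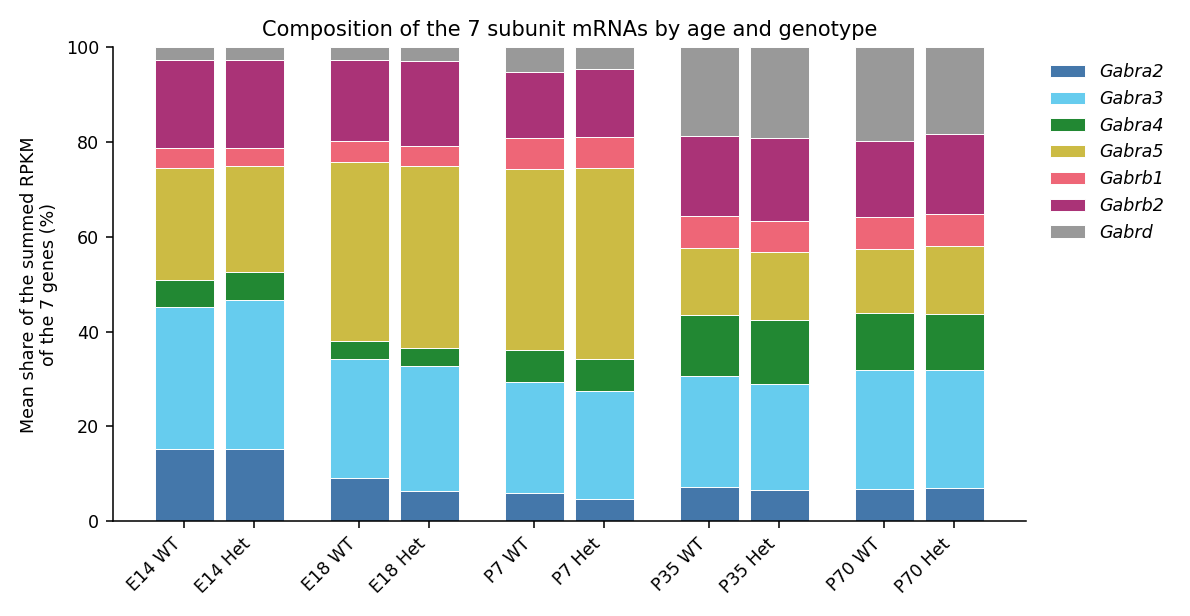
Mean share of each gene in the summed RPKM of the 7 subunit genes, in percent, for the 10 groups of 5 libraries. Gabra5 takes 38.2% at P7 WT and 13.6% at P70 WT, and Gabrd takes 2.59% at E14 WT and 19.7% at P70 WT.

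The second question was whether loss of 1 copy of Setd1a changes these mRNAs. With age as a covariate, edgeR called 0 of the 7 members, against 4.43% of all genes. Before adjustment, p lay under 0.05 for 0 members and for 2360 of all genes, and DESeq2 and limma-voom also called 0 members. The median log2 difference of the members was 0.02, beside 0.0012 for all genes. Gabra2 had the lowest p of the 7, with a difference of -0.17 (SE 0.11, 95% interval -0.38 to 0.04, p 0.112, adjusted p 0.496). Without P7 WT replicate 2 the difference of Gabra2 was -0.13, and without the 2 libraries with Xist counts it was -0.18. For Gabrb2 the difference was 0.06 (95% interval -0.05 to 0.16), and for Gabra5 it was 0.05 (-0.06 to 0.16). Gabra3 differed by 0.02 (-0.08 to 0.12), Gabra4 by 0.02 (-0.09 to 0.13), Gabrb1 by -0.01 (-0.17 to 0.15) and Gabrd by -0.0044 (-0.09 to 0.08). The sign of the differences of Gabra3, Gabra4, Gabrb1 and Gabrd changed under some alternatives.

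At single ages edgeR also called 0 of the 7 members, with 0 at an unadjusted p under 0.05 at each age, and DESeq2 and limma-voom called 0. The share of all genes called between genotypes was 0.129% in E14 cortex, 0.11% in E18 and 0.735% in P7 cortex. At P35 it was 0%, and at P70 0.233%. These shares depended on the fit and the libraries. Without the 2 libraries with Xist counts edgeR called 795 genes at E14 and 77 at E18 out of 16403, against 21 and 18 with them. DESeq2 called 114 genes at E14 and 111 at E18, and limma-voom called 16 genes at P7, where edgeR called 120. Without P7 WT replicate 2 edgeR called 7 genes at P7 out of 16396. In each of these fits 0 of the 7 members were called. Unadjusted p under 0.05 was reached by 1895, 1857, 1447, 550 and 1070 of all genes at the 5 ages in order. The largest difference between genotypes was that of Gabra2 at E18, -0.45 (SE 0.24, p 0.0721, adjusted p 0.492). The WT and Het values of Gabra2 at E18 overlapped, with 4 WT mice above 4 of the Het mice, and without the 2 libraries with Xist counts the difference was -0.33. It was -0.70 with RNA integrity as a covariate (p 0.00893, adjusted p 0.626), and with single libraries left out it ran from -0.63 without E18 Het replicate 5 to -0.29 without E18 WT replicate 5. At P7 the difference of Gabra2 was -0.24, and without P7 WT replicate 2 it was -0.04. The joint test of age by genotype asks whether the genotype difference varies with age, and edgeR, DESeq2 and limma-voom called 0 of the 7 members in it. Its unadjusted p ran from 0.381 for Gabrb2 to 0.918 for Gabra4, and of all genes 0% were called by edgeR and 1098 had an unadjusted p under 0.05.

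Single libraries bore on the differences between genotypes at E14. E14 WT replicate 5 was the lowest of its group for Gabra2, Gabra3, Gabra4, Gabra5, Gabrb1 and Gabrb2, and its neuronal markers were the lowest as well, at 2179 CPM against 2659 to 3249 CPM in the other 4. With this library the differences between Het and WT at E14 were -0.19 for Gabra5, -0.28 for Gabrb1 and -0.17 for Gabrb2. Without it they were -0.33 (p 0.0118), -0.45 (p 0.0202) and -0.31 (p 0.00499). Without E14 WT replicate 2, the highest of its group for these 3 genes, they were -0.02, 0.04 and 0.0018, and without E14 Het replicate 3 they were -0.37, -0.53 and -0.27. They thus came near 0 or grew, depending on the library left out. None was called, the lowest adjusted p being 0.0703 for Gabrb2. The part of the neuronal markers in these differences was not tested.

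**Figure D4:**
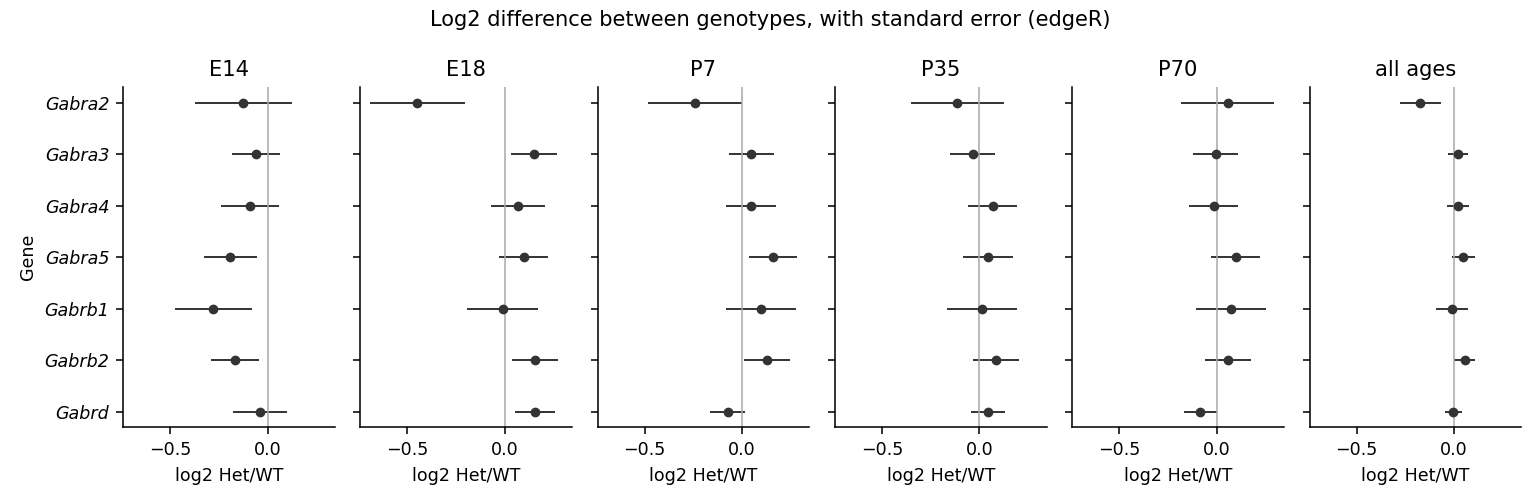
Log2 difference between Het and WT cortex for the 7 subunit genes at each age and over all ages, from edgeR, with points for estimates and bars for 1 standard error. The largest is that of Gabra2 at E18 (-0.45), and 0 of the 7 were called at any age.

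Courses over the 50 libraries were compared by Pearson r of log2 CPM, a description in which the points share the 5 ages. Among the 7 members the highest r was 0.987 between Gabra3 and Gabrb1, and the lowest was 0.556 between Gabra2 and Gabra5. The neighbours Gabra4 and Gabrb1 had an r of 0.963, and Gabra4 was closer to Gabrd (0.986). Gabra5 had an r of at most 0.816 with any other member.

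Of all genes tested, Car10 (0.922), Gria4 (0.921) and Sez6l2 (0.919) were the most similar to Gabra2. For Gabra3 they were Stum (0.994), Dpp10 (0.994) and Ppp2r2c (0.993), and for Gabra4 Lgi1 (0.996), Nptn (0.996) and Smim13 (0.995). Gabra2 thus had no gene as close to it as the other members had. Gabra5 was most similar to Slc16a7 (0.987), Plppr5 (0.985) and Pcdhac2 (0.984), the last of which shares 48.6% of its exon bases with Pcdha1. Gabrb1 was most similar to Gabbr2 (0.997), Dtna (0.995) and Rasgrf2 (0.994), and Gabrb2 to Ntrk2 (0.994), Sptbn4 (0.992) and Rims1 (0.991). Gabrd was most similar to Eno2 (0.997), Rgs7bp (0.995) and 2010300C02Rik (0.995). Gabbr2, first for Gabrb1, encodes a subunit of the GABA-B receptor, which is coupled to G proteins and is no channel. In the 25 WT libraries alone, 9 of these 21 genes were again among the first 3 for their member.

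Other genes of GABA signalling were read from 7 lists with 59 genes, of which 55 were tested. From E14 to P70 in WT cortex 38 of the 55 were called higher and 6 lower, with a median log2 difference of 1.30, beside 42.8% of all genes called higher and 42.9% lower. Of the 9 other GABA-A subunit genes tested, 6 were called higher and 2 lower, among them the gamma subunit gene Gabrg3 (3.34), Gabrr3 (3.28) and Gabre, which fell (-3.02). All 8 genes for the synthesis, packaging, uptake and breakdown of GABA were called higher, among them the transporter gene Slc6a11 (2.90), the synthetic enzyme gene Gad1 (1.82) and Aldh5a1 (1.36), of whose exon bases 17.7% are shared with 4932702P03Rik. Of the 2 chloride cotransporter genes 1 was called, Slc12a5, which exports chloride from neurons and rose by 3.96.

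Of the 11 genes tested for scaffolds and auxiliary proteins at inhibitory synapses, 8 were called higher and 1 lower from E14 to P70 in WT cortex. Of all genes 42.8% were called higher and 42.9% lower. Iqsec3 (2.46) and Insyn1 (2.32) rose, and Mdga1, whose protein restrains the assembly of synapses, was lower (-2.11). Of the 14 trafficking genes 8 were called higher and 2 lower (all genes 42.8% and 42.9%). Nsf was at 3.64, Gabarapl1 at 2.40 (28.3% of its exon bases shared with 1700101I11Rik) and Arfgef2 at 1.58. Of the 6 genes of GABA-B receptors 4 were called higher and 0 lower (all genes 42.8% and 42.9%). Gabbr2 was at 4.30, Kctd8 at 1.63 and Gabbr1 at 1.30. Of the 5 glycine receptor genes 3 were called higher and 1 lower (all genes 42.8% and 42.9%). Glra3 was at 4.26, Glrb at 3.71 and Glra2 at -0.90. Between the genotypes, edgeR called 0 of the 55 with age as a covariate (4.43% of all genes), and 0 had an unadjusted p under 0.05. In the joint test of age by genotype edgeR called 0 of the 55 (0% of all genes), with 2 at an unadjusted p under 0.05. At single ages edgeR called 1 of the 55, a glycine receptor gene that was lower in Het cortex at P7, where 0.735% of all genes were called. Its P7 WT level was highest in replicate 2 (3.09 CPM), and its difference between Het and WT was -3.25 (edgeR adjusted p 0.0223). Without replicate 2, left out after the data were seen, it was -0.99, and edgeR called 0 of the 55 (0.0427% of all genes).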

How the data were processed

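The authors aligned reads with STAR and counted fragments over exons of Ensembl genes with featureCounts, and the deposited values are raw counts, with no normalization. Protein-coding genes that passed edgeR's filterByExpr (a minimum equal to 10 counts in a library of median size, reached in 5 libraries or more) entered the quasi-likelihood fits of edgeR 4.0.16 in R 4.3.3, after TMM scaling. The fits held 10 groups, or age and genotype, or their product (4 interaction terms tested jointly). All p were adjusted by Benjamini-Hochberg over all genes tested, and 0.05 was the threshold. Log2 CPM used a prior count of 2, and RPKM used the length column of the count files. Sequences came from the RefSeq promoter table and positions from the GENCODE annotation. 1 promoter is not reported here.

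Alternatives were DESeq2 1.42.0, limma-voom (limma 3.58.1), the size factors of DESeq2 within edgeR, scaling by library size only, no filter, a minimum of 10 CPM in 5 libraries, every annotated gene, a covariate for RNA integrity, a replicate block, a threshold of 0.01, each library left out in turn, and both libraries with Xist counts left out. The edgeR fits of 2 comparisons, genotype and E14 to E18 in WT cortex, were tested on simulated data. No result given here rests on that test. The members, lists and comparisons were chosen with earlier results of these data known. Genes named beside the members were the 3 with the highest Pearson r to each and, in each list, up to 4 with the largest change from E14 to P70 in WT cortex, and some genes of the lists are not reported here. The labels do not say whether replicate numbers pair WT with Het mice, and no test used them as pairs other than the block.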

Additional observations from a re-analysis of the deposited data

Results flagged for a closer look

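In each of 70 groups of 5 libraries (7 genes by 10 groups), the gap between the highest or lowest library and its neighbour was divided by the range of the group. That ratio was above the critical value of 0.71 in 8 groups, which involve 6 libraries. Chance puts about 1 in 20 groups past this value, and the genes are measured in the same libraries, so the 70 groups are not independent.

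P7 WT replicate 2, whose marker genes differ from its group, accounts for 3 of the 8, with 69.7 CPM for Gabra2 (highest of its group), 81.4 CPM for Gabra3 (lowest) and 88.3 CPM for Gabra5 (lowest). Gabra2 was also far above its group in E18 Het replicate 5 (41.1 CPM) and in P35 Het replicate 2 (100.2 CPM). Gabra4 was far above its group in E18 Het replicate 4 (17.6 CPM) and below it in P35 WT replicate 4 (101.9 CPM). Gabra5 was below its group in P7 Het replicate 5 (116 CPM).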

How the results depend on the processing

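The 11 alternatives, among them DESeq2 and limma-voom, and edgeR with each of the 50 libraries left out in turn called 0 of the 7 members for genotype, at single ages and for the interaction, and 7 between E14 and P70 in each genotype. In the age steps up to P35 the counts stayed at 6 or 7. Of all genes 52.5% to 76.1% were called in these steps and 71.9% to 90.2% from E14 to P70. Between genotypes the 11 alternatives called from 406 of 16330 (threshold of 0.01) to 828 of 16292 genes (DESeq2) with age as a covariate. At single ages they called 2 to 795 genes at E14, 1 to 111 at E18 and 16 to 135 at P7. The counts were 0 to 11 at P35 and 6 to 78 at P70, and 0 to 21 for the interaction. Scaling by library size only moved the median log2 difference of all genes from E14 to P70 by -0.11 in WT and -0.15 in Het cortex, and all 7 members were still called higher. Gabrb1 lost its call from P7 to P35 in WT cortex at the threshold of 0.01 (adjusted p 0.0188), and in Het cortex it gained it with limma-voom (adjusted p 0.00637), with a minimum of 10 CPM (0.0348) and without the 2 libraries with Xist counts (0.0274). Gabra2 gained its call from E18 to P7 in Het cortex with a minimum of 10 CPM (adjusted p 0.0486) and with RNA integrity as a covariate (0.0107), which moved the difference from 0.479 to 0.753, and lost that from E14 to E18 in WT cortex without the 2 libraries with Xist counts (0.0829).

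Differences between Het and WT over all ages that changed sign were all near 0 and never called. That of Gabrb1 was 0.0387 with limma-voom and 0.0107 with the replicate block, that of Gabrd was 0.000596 with the size factors of DESeq2, and that of Gabra3 was -0.00887 without the 2 libraries with Xist counts. With each library left out in turn the range was -0.00157 to 0.0422 for Gabra3, -0.000104 to 0.0537 for Gabra4, -0.0413 to 0.0454 for Gabrb1 and -0.0215 to 0.00941 for Gabrd, and -0.218 to -0.133 for Gabra2, 0.0266 to 0.0817 for Gabra5 and 0.0349 to 0.0897 for Gabrb2, which kept their sign. With the longest transcript as length, E14 WT levels became 1.55 RPKM for Gabra4 and 5.52 RPKM for Gabrb2, and P70 WT levels 12.5 for Gabra2, 25.2 for Gabra4, 21.4 for Gabra5 and 36.7 RPKM for Gabrb2, as the shorter length sets. Of the 21 similar genes 9 were again in the first 3 in WT libraries. The cause was not tested for the other changes.

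Same-numbered WT and Het libraries of an age had a median correlation of 0.0636 (-0.204 to 0.460) after group means were removed. Of the 25 pairs, 9 were above 0.1. Differently numbered libraries were not compared, so these values cannot decide whether the numbers carry a pairing. Counts of the members were lowest for Gabrd at E14. Power was not computed, and differences inside the 95% intervals, or slightly outside them, are not excluded. The counts give no protein, receptor or cell-type level.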
